A study of Homo sapiens and Mus musculus with 20 samples.

Results

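Binding of KDM6A was compared between 2 human multiple myeloma cell lines, KARPAS and ARP1, each with wild-type KDM6A. The regions were enriched in 1 chromatin immunoprecipitation library per line, precipitated with an antibody to KDM6A, and both lists had every region that overlapped a region of the KDM6A knock-out ARP1 library removed. After that removal 44566 of 55867 KARPAS regions and 63118 of 90964 ARP1 regions were left, and the ARP1 list was cut to its 44566 regions with the highest −log10 q so that both lists had equal length. The 2 lists come from a series of 20 libraries, of which 9 were used. The others used were the KDM6A knock-out list, and in ARP1 the H3K27ac, H3K4me1, H3K27me3 and input lists of the wild type, a list from an HA antibody in HA-tagged cells (labelled KDM6A knock out), and a list from the same antibody in wild-type cells whose title names no tag, called untagged here. The labels give the genotypes and antibodies but no treatment, time or clone number, and they name neither line beyond KARPAS and ARP1. Each group had 1 library. No difference below therefore has a replicate check or a test, and the 95% intervals in brackets (exact Clopper-Pearson) cover counting error only. The knock-out list is the background of ARP1 only: a background list of KARPAS was not analysed here.

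KDM6A, also called UTX, is a demethylase that removes methyl groups from lysine 27 of histone H3, the mark that Polycomb complexes place on silent genes. It is also a subunit of the COMPASS complexes built around KMT2C and KMT2D, which place H3K4me1 at enhancers, and it works there with the acetyltransferases that place H3K27ac. The gene is mutated or lost in a fraction of multiple myelomas, the cancer of plasma cells, and those cells derive from B cells by a change of programme in which IRF4, PRDM1 and XBP1 replace PAX5 and the other B cell regulators.

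The regions of both lists were short, with a median length of 368 bp in KARPAS and 360 bp in ARP1, and few lay on promoters. Among the 15812 protein-coding promoters with a RefSeq sequence (GRCh38.p14, 300 bases ending 50 bases after the start), 979 (6.19%) held a KARPAS region and 125 (0.79%) an ARP1 region. 4 of them are shown because they stand for the 3 states compared below, a region within 10 kb of the gene in KARPAS only (FCER2), in ARP1 only (IFIT5 and IFI44L) and in both lines (VIM). They come from the 2 highest-ranked promoter regions of each state among the gene lists used below. The second KARPAS-only promoter, ICAM3, and the second of both lines, CD48, held no match to any motif and are not printed. Capitals mark matches on either strand to any of 8 motifs searched: ETS (CCGGAAG), AP-1 (TGANTCA), the octamer (ATGCAAAT), CCAAT, the GC box (GGGCGG), the E-box (CACGTG), RUNX (TGTGGTT) and the interferon-stimulated response element or ISRE. Each reads 5′ to 3′ on the strand of its gene. The FCER2 window is on chromosome 19 at 7702082 to 7702381, minus strand, and the IFIT5 window on chromosome 10 at 89414318 to 89414617, plus strand. IFI44L is on chromosome 1 at 78620198 to 78620497 and VIM on chromosome 10 at 17227991 to 17228290, both on the plus strand.
FCER2: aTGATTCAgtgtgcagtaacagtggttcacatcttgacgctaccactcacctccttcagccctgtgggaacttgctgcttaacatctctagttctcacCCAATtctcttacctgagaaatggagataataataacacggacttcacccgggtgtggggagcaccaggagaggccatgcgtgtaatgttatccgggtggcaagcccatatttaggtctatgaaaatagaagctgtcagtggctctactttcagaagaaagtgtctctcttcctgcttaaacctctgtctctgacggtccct
IFIT5: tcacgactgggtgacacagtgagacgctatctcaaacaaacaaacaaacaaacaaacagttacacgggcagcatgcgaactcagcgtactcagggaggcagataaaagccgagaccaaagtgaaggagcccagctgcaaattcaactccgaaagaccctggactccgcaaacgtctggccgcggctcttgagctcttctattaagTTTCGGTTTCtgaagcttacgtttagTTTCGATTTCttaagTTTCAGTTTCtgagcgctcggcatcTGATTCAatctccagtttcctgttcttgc
IFI44L: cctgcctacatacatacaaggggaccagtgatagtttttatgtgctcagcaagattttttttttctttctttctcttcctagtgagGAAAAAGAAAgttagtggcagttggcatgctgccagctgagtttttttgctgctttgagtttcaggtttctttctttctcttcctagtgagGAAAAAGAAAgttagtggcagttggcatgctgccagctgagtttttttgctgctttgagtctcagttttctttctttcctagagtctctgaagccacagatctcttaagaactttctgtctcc
VIM: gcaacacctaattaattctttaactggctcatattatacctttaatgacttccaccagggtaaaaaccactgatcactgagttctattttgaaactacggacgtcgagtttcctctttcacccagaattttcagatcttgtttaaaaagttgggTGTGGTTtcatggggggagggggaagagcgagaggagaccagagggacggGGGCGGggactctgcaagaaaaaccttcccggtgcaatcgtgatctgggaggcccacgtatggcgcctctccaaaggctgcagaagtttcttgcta

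FCER2 encodes CD23, a receptor of mature B cells, and its window held 1 AP-1 and 1 CCAAT match. IFIT5 and IFI44L are interferon-induced genes. The IFIT5 window held 3 ISRE matches and 1 AP-1 match, and the IFI44L window held 2 ISRE matches. VIM encodes vimentin, a filament protein of mesenchymal and many blood cells, and its window held 1 RUNX and 1 GC box match. Over all promoters, the ISRE was found in 3.17%, against 5.11% (3.81 to 6.68) of the promoters with a KARPAS region and 11.2% (6.26 to 18.1) of those with an ARP1 region. RUNX was found in 3.55% of all promoters, 6.23% (4.80 to 7.93) with a KARPAS region and 16.8% (10.7 to 24.5) with an ARP1 region. The ETS motif was found in 14.2% of all, in 21.7% (19.1 to 24.4) of the KARPAS and in 12.8% (7.50 to 20.0) of the ARP1 promoters. The octamer was found in 1.70% of all, in 3.68% (2.59 to 5.05) of the KARPAS and in 5.60% (2.28 to 11.2) of the ARP1 promoters. Promoters with H3K27ac in ARP1, whichever line bound them, held the ETS motif in 22.6%, RUNX in 2.98%, the ISRE in 2.66% and the octamer in 1.42%. The KARPAS share for ETS was near that of acetylated promoters, and for RUNX, the ISRE and the octamer the shares of both lines were above it. Base composition moved with these shares, at a median GC content of 62.7% over all, 61.3% with a KARPAS and 57.0% with an ARP1 region, and its part was not tested. The ARP1 shares rest on 21 promoters with RUNX, 14 with the ISRE and 7 with the octamer. The KARPAS and ARP1 groups overlap, as 75 promoters held a region of each line. Of the ARP1 promoters just counted, 15, 9 and 4 were among these 75. The 75 held RUNX in 20.0% (11.6 to 30.8), and the 50 with an ARP1 region only in 12.0% (4.53 to 24.3). For the ISRE the shares were 12.0% (5.64 to 21.6) and 10.0% (3.33 to 21.8). Whether the ARP1 shares are a trait of ARP1 or of promoters bound in both lines was not tested.

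The depth of the libraries differed: 37389280 tags were left after filtering in KARPAS, 11898708 in ARP1 and 20186824 in the knock-out. The lowest −log10 q kept was 1.74 in KARPAS and 3.23 in ARP1. At that ARP1 value 11340 regions were tied, of which 5269 were kept in order of position and 6071 left out. ARP1 regions were also gathered in few places. Counting regions in bins of 1 Mb, a bin was called dense when it held over 10 times the median count of that list. In ARP1 80 dense bins held 47.3% of all regions left after the knock-out removal, and in KARPAS 25 held 8.43%. The fullest ARP1 bins lay on chromosome 11 between 51 and 54 Mb, with 612 to 697 regions each against 28 or 29 in KARPAS, on chromosome 16 from 37 to 38 Mb (695 against 33) and on chromosome 21 from 11 to 12 Mb (670 against 129). In KARPAS the fullest were on chromosome 16 from 32 to 34 Mb, with 311 and 303 regions against 20 and 17 in ARP1. The knock-out list held 87.9% of its regions in dense bins of its own. The 88 bins that were dense in KARPAS or ARP1 held 8.53% of KARPAS-only, 51.4% of ARP1-only and 37.4% of shared regions, and results that rest on them are given with and without them.

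Most regions were found in 1 line only. In KARPAS 6675 of 44566 regions (15.0%, 14.6 to 15.3) shared at least 1 bp with a region of ARP1, and in ARP1 6614 of 44566 (14.8%, 14.5 to 15.2) did so with a region of KARPAS. That left 37891 KARPAS-only and 37952 ARP1-only regions. Where regions overlapped they were centred close together, as the summits of the 6778 overlapping pairs lay a median of 63 bp apart and 65.5% within 100 bp. Without removal of the knock-out list 28.1% (27.8 to 28.5) of KARPAS regions were shared. Outside the dense bins 4177 of 38835 KARPAS regions (10.8%, 10.4 to 11.1) were shared. In ARP1 4206 of 22637 regions there (18.6%, 18.1 to 19.1) were shared. The shared counts were close, but the lists were no longer of equal length, so these shares are not directly comparable. Without dense bins and with both lists cut again to 32821 regions, 14.1% of KARPAS and 14.4% of ARP1 regions were shared.

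Sharing varied with rank in ARP1 more than in KARPAS. Of the 4456 highest-ranked ARP1 regions 36.9% were shared, and of the 4457 lowest-ranked 6.33%. In KARPAS the same shares were 18.6% and 12.8%. Shared regions were also higher in the ARP1 list, with a median fold enrichment over the library's mean of 6.91 in shared and 5.32 in ARP1-only regions, whereas in KARPAS the median was 5.04 in both.

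**Figure D1:**
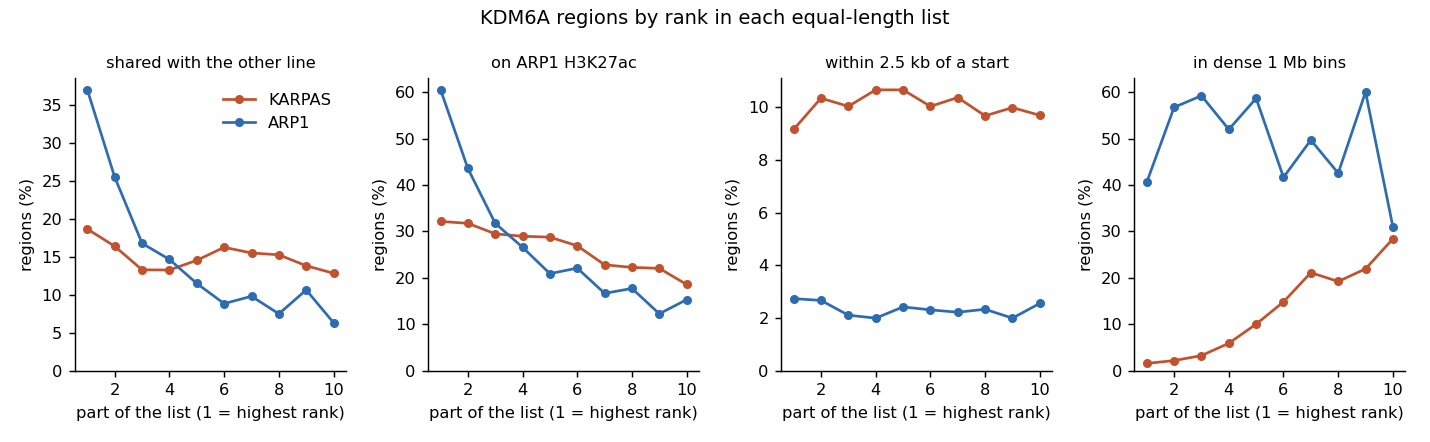
Share of regions (%) in each of 10 equal parts of the KARPAS and ARP1 lists, from the highest rank on the left to the lowest, for regions shared with the other line, on ARP1 H3K27ac, within 2.5 kb of a gene start and in dense 1 Mb bins. The shared share falls from 36.9% to 6.33% in ARP1 and from 18.6% to 12.8% in KARPAS, and the share near a start is between 9.16% and 10.7% in KARPAS and between 2.00% and 2.74% in ARP1 throughout.

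KARPAS regions lay nearer to genes than ARP1 regions. A region was called promoter-proximal within 2.5 kb of the start of a protein-coding gene, or of either gene end for the 4162 of 19974 genes whose start was not in the table used. By this rule 4083 KARPAS-only regions (10.8%, 10.5 to 11.1) were proximal, 400 shared regions (5.99%, 5.43 to 6.59) and 650 ARP1-only regions (1.71%, 1.58 to 1.85). In the knock-out list the proximal share was 2.72% (2.58 to 2.88), above that of ARP1-only regions. The rest were distal, 89.2% of KARPAS-only and 98.3% of ARP1-only regions. The median distance to a start was 38.0 kb for KARPAS-only, 122 kb for shared, 704 kb for ARP1-only and 765 kb for knock-out regions. Outside the dense bins the order of the 3 classes was the same, at 11.6% (11.3 to 12.0) proximal in KARPAS-only, 9.07% (8.22 to 9.99) in shared and 2.92% (2.68 to 3.17) in ARP1-only regions, with 5.63% in the knock-out list and median distances of 32.7, 38.7 and 98.2 kb in the 3 classes.

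The starts themselves were seldom covered. A region lay over a start in 598 (1.58%) KARPAS-only, 69 (1.03%) shared and 52 (0.14%) ARP1-only cases. Between the 2 ends of a protein-coding gene lay 44.2% (43.7 to 44.7) of KARPAS-only, 31.9% (30.8 to 33.0) of shared and 20.3% (19.9 to 20.7) of ARP1-only regions. The proximal share varied little along the rank in either line, between 9.16% and 10.7% in KARPAS and between 2.00% and 2.74% in ARP1 over 10 parts of each list.

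**Figure D2:**
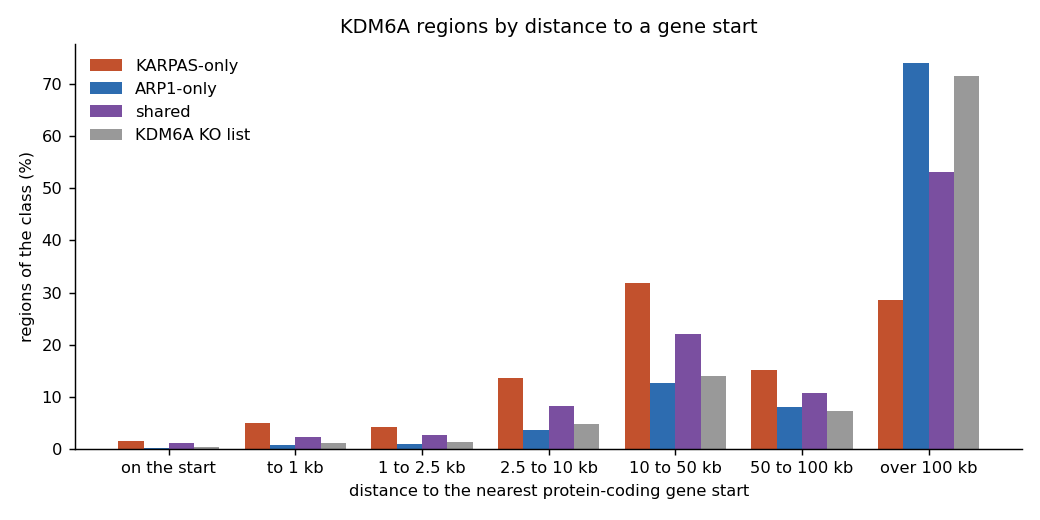
Share of the regions of each class (%) by distance to the nearest protein-coding gene start, for KARPAS-only, ARP1-only and shared regions and the KDM6A knock-out list. Of the ARP1-only regions 74.0% lie over 100 kb from a start, against 28.6% of KARPAS-only and 53.1% of shared regions.

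The histone marks of ARP1 were a readout that the classes did not use. Regions shared by the lines lay on enhancer marks of ARP1 more often than regions of either line alone. An H3K27ac region of ARP1 was overlapped by 57.6% (56.5 to 58.8) of shared, 21.1% (20.7 to 21.6) of ARP1-only and 20.9% (20.5 to 21.3) of KARPAS-only regions, while H3K27ac covered 2.63% of the effective genome. H3K4me1, the mark of enhancers, was overlapped by 66.2% of shared, 28.0% of ARP1-only and 24.3% of KARPAS-only regions. H3K27me3, the mark that KDM6A removes, was overlapped by 12.0%, 4.08% and 2.31% in the same order. The knock-out list gave 19.4% for H3K27ac and 26.5% for H3K4me1, close to the ARP1-only values, and 8.39% for H3K27me3, above them. Outside the dense bins H3K27ac was overlapped by 74.1% of shared, 29.2% of ARP1-only, 21.5% of KARPAS-only and 18.4% of knock-out regions.

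In each class proximal regions lay on ARP1 H3K27ac more often than distal ones. All 15812 promoter windows gave 55.2%, but these are 300 bases at the start and no like measure for regions within 2.5 kb. Counted by genes, H3K27ac lay within 2.5 kb of 68.1% of KARPAS-only genes and 59.2% of all genes. Of the proximal KARPAS-only regions 56.6% (55.1 to 58.2) lay on ARP1 H3K27ac, and of the distal ones 16.5% (16.2 to 16.9). The same shares were 46.6% (42.7 to 50.5) and 20.7% (20.3 to 21.1) for ARP1-only regions, and 82.8% (78.7 to 86.3) and 56.0% (54.8 to 57.3) for shared regions. The mark followed rank in ARP1, from 60.5% of the highest-ranked 4456 regions to 15.3% of the lowest-ranked 4457, and from 32.2% to 18.6% in KARPAS. No histone list of KARPAS was used here, so these shares give the state of ARP1 chromatin and not of KARPAS.

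The HA lists gave a further view of the ARP1 regions. HA regions of the tagged line were overlapped by 72.8% (71.7 to 73.9) of shared, 27.3% (26.9 to 27.8) of ARP1-only and 14.0% (13.7 to 14.4) of KARPAS-only regions. The knock-out list gave 36.9% (36.5 to 37.4), above the ARP1-only share. The untagged HA list, a background, was overlapped by 42.2% (41.0 to 43.4), 49.8% (49.3 to 50.3) and 7.38% (7.12 to 7.64), and by 59.1% of the knock-out list. In the ARP1-only class the untagged share was the higher of the 2. Outside the dense bins the order of these 2 lists was reversed for ARP1-only regions, at 32.9% tagged and 27.6% untagged, and for shared regions the values were 79.5% and 13.1%. The part of this background in the ARP1-only class was not tested. The highest-ranked 4456 ARP1 regions lay on the tagged list in 80.0% and on the untagged list in 43.1%, and the lowest-ranked 4457 in 17.4% and 32.6%.

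**Figure D3:**
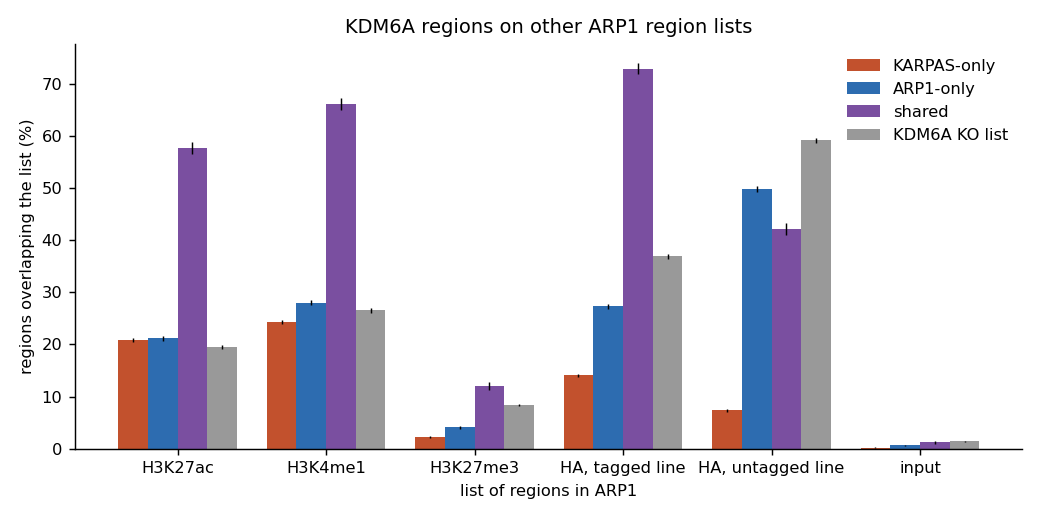
Share of regions (%) of each class that overlap 6 region lists of ARP1 by at least 1 bp, with exact 95% binomial intervals as bars. Shared regions are highest on H3K27ac (57.6%), H3K4me1 (66.2%) and the tagged HA list (72.8%), and the knock-out list is highest on the untagged HA list (59.1%).

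Next the regions were assigned to the 19974 protein-coding genes. A region within 10 kb of the start (or of either end where no start was given) was found at 7379 genes in KARPAS (36.9% of all genes) and 2521 in ARP1 (12.6%). In KARPAS alone there were 5863 genes (29.4%), in ARP1 alone 1005 (5.03%) and in both lines 1516 (7.59%). The knock-out list had a region at 1341 genes (6.71%). Of the 1516 genes with regions in both lines 1005 (66.3%, 63.9 to 68.7) had regions that overlapped, and the others had regions at separate places. Against the deposited lists, before any region was removed, 5362 genes had a KARPAS region and none in ARP1, and 956 the opposite. H3K27ac of ARP1 lay within 2.5 kb at 79.7% (77.6 to 81.7) of the genes bound in both, 68.1% (66.8 to 69.2) of KARPAS-only, 61.6% (58.5 to 64.6) of ARP1-only genes and 51.8% (50.9 to 52.8) of genes bound in neither line. An HA region of the tagged line lay within 10 kb of 83.4%, 35.8%, 60.8% and 14.3% of these genes in the same order, of 69.0% of the knock-out genes and of 28.2% of all genes.

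The genes with the highest-ranked region in 1 line and none in the other's deposited list had varied functions. In KARPAS they began with LEPROTL1 and SARAF, 2 neighbours on chromosome 8 that shared 1 region (rank 5 of 44566, 47.2-fold over the library's mean). SARAF is a regulator of calcium entry into the cell. Then came SMAD6, an inhibitor of BMP signalling (rank 8, 44.6-fold), and CCDC51, PLXNB1 and TMA7, neighbours on chromosome 3 at 1 region of rank 29. LRRC32, which encodes the TGF-β docking receptor GARP, had rank 54, and PI4K2A, LOC124903372 and CHRNA2 ranks 62, 63 and 75. ARP1 H3K27ac lay within 10 kb of all of these but CHRNA2, beside 76.5% of all KARPAS-only genes, and an HA region of the tagged line near none of them, beside 35.8%. In ARP1 the list was GALNT5, a glycosyltransferase (rank 4, 48.9-fold), TRIM60 (rank 11, 37.7-fold), the salivary amylase genes AMY1A, AMY1C and AMY1B (ranks 45, 46 and 71), NEGR1 (rank 99), MRPL14 and TMEM63B at 1 region (rank 147), MAP1LC3C (rank 173) and KLRC2 (rank 199). As AMY1A, AMY1B and AMY1C are near-identical in sequence, which of them carries the regions is uncertain. HA regions of the tagged line lay within 10 kb of all of these but NEGR1 and KLRC2, beside 60.8% of all ARP1-only genes and 69.0% of the genes with a knock-out region.

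Among genes bound in both lines, the 10 whose lower rank was best were WHAMM, ZDHHC22, F2R, UPP1, RAB36, RNF111, FRMPD4, IRF2, MEOX1 and TC2N, and all had an HA region within 10 kb, as had 83.4% of all genes bound in both. ZDHHC22 had rank 2 in KARPAS (51.2-fold, −log10 q of 270) and rank 471 in ARP1 (19.1-fold, −log10 q of 40.2), at overlapping regions on chromosome 14. UPP1, uridine phosphorylase, had ranks 645 and 648 at a region on chromosome 7. IRF2, a repressor and activator of interferon-responsive genes, had ranks 452 and 985 at overlapping regions on chromosome 4, 2859 and 3056 bp from an end of the gene. MEOX1 had ranks 996 and 248, with both regions over a gene end. The best-ranked regions of WHAMM, F2R, RAB36 and TC2N lay at separate places in the 2 lines. At F2R they were 4150 bp from an end of the gene in KARPAS and 1320 bp in ARP1. Some genes held many regions, counted over the whole gene and 10 kb either side without regard to its length. RAD51B, which spans 863 kb, held 47 KARPAS and 13 ARP1 regions, PDXDC1 (178 kb) 42 and 2, ATXN1 (462 kb) 35 and 9, CSGALNACT1 (354 kb) 35 and 8 and DLGAP1 (959 kb) 33 and 4. With the most ARP1 regions, SRGAP2B (208 kb) held 37 ARP1 and 8 KARPAS regions, CNTNAP2 (2304 kb) 32 and 8, SRGAP2 (261 kb) 31 and 11, RABGAP1L (836 kb) 29 and 27 and LPIN1 (150 kb), which lies in a dense bin, 28 and 6. SRGAP2 and SRGAP2B are copies of each other, and counts at them are uncertain.

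KARPAS regions were found at most genes of B cell identity, and ARP1 regions at fewer. Of the 20 genes of the list 17 had a KARPAS region within 10 kb and 4 an ARP1 region, beside 36.9% and 12.6% of all genes. The share of the list was thus above that of all genes in both lines (85% and 20%). In KARPAS the plasma cell genes and the lymphoid transcription factors given below were close to it, at 16 of 20 each. In 13 of the 17 the KARPAS region with the best rank lay within 2.5 kb. The same held at 11 of 15 immune ligand and adhesion, 8 of 12 housekeeping and 5 of 16 plasma cell genes bound in KARPAS. It was not counted over all KARPAS genes. The median rank of the best region of the 17 genes was 8648, against 16219 for all 7379 KARPAS genes. No gene of the list had a region in ARP1 alone, and 13 had one in KARPAS alone, beside 5.03% and 29.4% of all genes. 1 of these, MS4A1, had a region in the deposited ARP1 list, of rank 70359. The knock-out list had a region at 3 of the 20, MS4A1, FCER2 and CXCR5, beside 6.71% of all genes. At FCER2 and CXCR5 the best region of the deposited KARPAS list, of rank 1850 and 1968, was not in the list left after the knock-out removal, and the ranks given below are those of other regions. In ARP1 10 of the 20 had H3K27ac within 10 kb, against 66.4% of all genes.

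MS4A1, the gene of the CD20 surface antigen, had its KARPAS region on chromosome 11 at 60455308 to 60456130, over an end of the gene, with rank 1165 and a fold of 21.2. BLK, a Src-family kinase of the B cell receptor, had the highest KARPAS rank of the list, 508 (26.3-fold), and an ARP1 region of rank 11805 at another place. VPREB3 had a KARPAS region of rank 1467, 1564 bp from its start on chromosome 22, and none in ARP1. CD79A, the signalling chain of the B cell receptor, had rank 3072 over its start in KARPAS and an ARP1 region of rank 7171 that lay 5355 bp away. Its partner CD79B was bound over an end of the gene in KARPAS only, at rank 11461. The surface genes CD22 (rank 8895), CD72 (8732), FCER2 (3382) and FCRLA (8558) had KARPAS regions within 10 kb and no ARP1 region there. So did CXCR5 (33057), a chemokine receptor that guides B cells to follicles, and BLNK (9688), an adaptor of the receptor.

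The transcription factors EBF1 (rank 8648, over its start), BACH2 (13989) and PAX5 (22717) had a region within 10 kb in KARPAS alone. Over the whole gene and 10 kb either side EBF1 held 13 KARPAS and 3 ARP1 regions, BACH2 11 and 11, and PAX5 4 and 0. BANK1 was the gene of the list where both lines had overlapping regions over the start, on chromosome 4, at ranks 14741 in KARPAS and 23423 in ARP1. CIITA, the master regulator of MHC class II, had rank 1984 in KARPAS at 10863121 to 10863646 on chromosome 16, 2560 bp from an end of the gene, and rank 36163 in ARP1 at 10871125 to 10871345. At CIITA and CD79A the ARP1 region overlapped a KARPAS region other than the best-ranked one. Thus 3 of the 4 genes of the list bound in both lines had overlapping regions, beside 66.3% of all genes bound in both. BCL11A, CR2 and TNFRSF13C had no region within 10 kb in either list, though BCL11A held 4 KARPAS regions over the whole gene and 10 kb either side.

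Plasma cell genes were bound in both lines at 8 of 20 genes, and B cell genes at 4 of 20, beside 7.59% of all genes. Of the plasma cell list 16 had a KARPAS region and 8 an ARP1 region, beside 36.9% and 12.6% of all genes. All 8 ARP1 genes were also bound in KARPAS. In 5 of these 8 the regions overlapped, beside 66.3% of all genes bound in both. None of the list was bound in ARP1 alone, where the share of all genes was itself only 5.03%. The knock-out list had a region at 6 of the 20, beside 6.71% of all genes. H3K27ac of ARP1 lay within 10 kb of 18 of the 20 and an HA region of the tagged line near 16, against 10 and 5 for the B cell list, and against 66.4% and 28.2% of all genes. The counts for 20 housekeeping genes were 20 and 15, so high counts were not particular to plasma cell genes.

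XBP1, the transcription factor that drives the secretory machinery, was higher in the ARP1 list, with rank 334 and a fold of 21.3 at 28791883 to 28792803 on chromosome 22, and rank 4047 and a fold of 13.8 in KARPAS at an overlapping region. CD38, a surface enzyme and drug target in myeloma, was high in both, at rank 1369 in KARPAS and 2438 in ARP1, 474 and 500 bp from the start. TNFRSF17, the gene of BCMA, was covered at an end of the gene in both, at ranks 1521 and 6993. IRF4, which myeloma cells require, had rank 4576 in ARP1 at 981 bp from the start, and rank 24375 in KARPAS at 9430 bp. SLAMF7, the antigen of the antibody elotuzumab, had rank 7451 in ARP1 and 17612 in KARPAS at separate places. DERL3, a factor of endoplasmic reticulum-associated degradation, had overlapping regions of rank 3720 and 10776. SEC11C, a signal peptidase subunit, had overlapping regions of rank 25471 and 27948, and JCHAIN, which joins antibody polymers, separate ones of 20616 and 23372.

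KARPAS alone was bound at FCRL5 (rank 1006), MZB1 (3603), FKBP11 (4169), PRDM1 (8665), CD27 (10754), TNFRSF13B (11447), CCR10 (23338) and TXNDC5 (26529). PRDM1 encodes BLIMP1, the repressor of the B cell programme, and MZB1 a chaperone of antibody assembly. TNFRSF13B and TXNDC5 did have regions in the deposited ARP1 list and in the knock-out list, and FCRL5 had one in the knock-out list, of rank 10480. The best deposited KARPAS regions of TNFRSF13B and TXNDC5, of rank 5986 and 1258, were not left after the knock-out removal. POU2AF1, SDC1, SSR4 and ITGA8 had no region within 10 kb in either equal-length list. At POU2AF1 the deposited lists did have regions, of rank 1623 in KARPAS and 2258 in ARP1, and the knock-out list had one of rank 879. SDC1 had a knock-out region of rank 49 and none in the deposited KARPAS or ARP1 list. Over the whole gene and 10 kb either side ITGA8 held 1 ARP1 region.

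**Figure D4:**
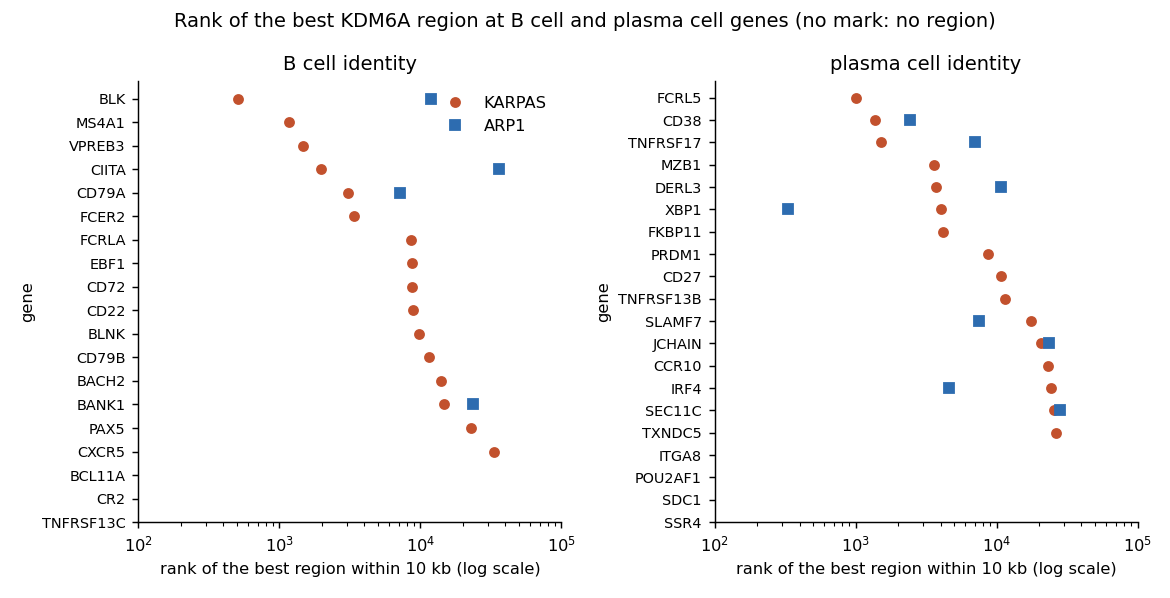
Rank of the best region within 10 kb of B cell genes (left) and plasma cell genes (right) in the KARPAS list (circles) and the ARP1 list (squares), on a log scale where a low rank is a strong region; genes without a mark had no region. ARP1 marks appear at 4 B cell and 8 plasma cell genes, and XBP1, IRF4 and SLAMF7 have a rank nearer 1 in ARP1 than in KARPAS.

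Of 20 lymphoid transcription factors and remodellers 16 were bound in KARPAS and 6 in ARP1, beside the 36.9% and 12.6% of all genes. TCF3, the E2A factor, had overlapping regions of rank 336 in KARPAS and 3092 in ARP1. POU2F2, the octamer factor OCT2, had a KARPAS region of rank 1243 and held 17 KARPAS and no ARP1 regions in the gene and 10 kb either side. RUNX1 had overlapping regions of rank 4046 and 21574 near its start. RELB was bound in KARPAS only, at rank 4614, and MEF2C in ARP1 only, at rank 4559. IKZF3, the target of lenalidomide-type drugs, had overlapping regions of rank 6087 and 27458. Its best regions of the deposited lists, of rank 3765 in KARPAS and 7651 in ARP1, were not left after the knock-out removal. The only other ARP1-only member was REL, and RUNX3 was bound in both (chosen after their values were seen).

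Genes of antigen presentation were taken as 2 lists. For MHC class I and antigen processing 13 of 21 genes were bound in KARPAS and 5 in ARP1, beside 36.9% and 12.6% of all genes, and no gene had overlapping regions. The KARPAS regions were low in the list, with a median best rank of 29069. PSME1, a proteasome activator, had rank 1174 in ARP1, 7673 bp from the start, and rank 44037 in KARPAS. NLRC5, the regulator of class I genes, had rank 10410 in ARP1 at 740 bp and 33836 in KARPAS at 8495 bp. TAP2 and PSMB8, neighbours, shared an ARP1 region of rank 11537 and a KARPAS region of rank 35683. B2M, the light chain of class I molecules, was bound in KARPAS only, at rank 19816. For MHC class II and its regulators 5 of 16 genes were bound in KARPAS and 3 in ARP1, counts near the shares of all genes. HLA-DMA and HLA-DMB, which load peptides, shared overlapping regions of rank 1945 in KARPAS and 18299 in ARP1. HLA-DOB (11175) and CD74 (15781) were bound in KARPAS only. The classical class II genes HLA-DRA, HLA-DRB1, HLA-DQA1 and HLA-DPA1 had no region within 10 kb in either list (chosen after their values were seen). At genes as variable and as alike as these region counts are uncertain. Requiring a −log10 q of 5 or more gave 6 of 21 class I genes in KARPAS, near the 28.1% of all genes at that threshold. Removing regions on the untagged HA list gave 8 of 21, near the 33.0% of all genes under that setting.

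Among immune ligands and adhesion genes 15 of 26 were bound in KARPAS and 7 in ARP1, beside 36.9% and 12.6% of all genes. PDCD1LG2, the gene of PD-L2, had the highest KARPAS rank of any listed gene, 169 (32.4-fold), 4563 bp from an end of the gene on chromosome 9, and an ARP1 region of rank 44085 elsewhere. CD70 had ranks 1001 in KARPAS and 37677 in ARP1, at separate places. CD48 had 1808 in ARP1 over its start and 2356 in KARPAS. CD84 was bound in KARPAS only, at rank 4876, and CD47 and HHLA2 in both at overlapping regions, at ranks 16660 and 20554 in KARPAS and 6293 and 6294 in ARP1. At HHLA2 the best deposited regions, of rank 2188 in KARPAS and 1997 in ARP1, were not left after the knock-out removal. Nor was the best deposited KARPAS region of CD47, of rank 9900.

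Interferon-stimulated genes were bound at 18 of 30 in KARPAS and 9 of 30 in ARP1, and 3 were bound in ARP1 alone, beside 36.9%, 12.6% and 5.03% of all genes. In KARPAS 12 of 20 housekeeping genes, the same share, were bound. At the IFIT cluster on chromosome 10, IFIT1, IFIT3 and IFIT5 had regions in ARP1 and IFIT2 had none in either line. IFIT1 had rank 380 (20.2-fold) 308 bp from the start in ARP1 and rank 19580 (5.57-fold) in KARPAS. IFIT5 had rank 1024 over its start in ARP1 and no KARPAS region. IFIT3 had overlapping regions of rank 2952 in ARP1 and 17019 in KARPAS. Its best deposited regions, of rank 4084 in the longer ARP1 list and 11620 in KARPAS, were not left after the knock-out removal. OAS2 (rank 6033) was bound in KARPAS only, and IFITM3 and IFITM2 in both, with best ranks of 4155 in KARPAS and 6723 in ARP1. IFI44L and IFIH1, chosen after their values were seen, completed the ARP1-only genes at ranks 10850 and 11101. The IFIT5 and IFI44L promoters printed above are those that the ARP1 regions overlapped.

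Myeloma oncogenes and survival genes were bound at 14 of 20 in KARPAS and 5 in ARP1, beside 36.9% and 12.6% of all genes. BCL2L11, the gene of the death factor BIM, had rank 231 in ARP1 (22.9-fold, 4370 bp from the start) and 26130 in KARPAS. CCND2, a cyclin that drives some myelomas, had rank 464 in ARP1 and no KARPAS region. Its relative CCND3 had rank 3611 in KARPAS and no region within 10 kb in the ARP1 list. IL6R, the receptor of the myeloma growth factor interleukin 6, had ranks 1915 in KARPAS and 17157 in ARP1. BMF, a death factor, had 3347 and 36046. IL6ST had its better rank in ARP1, 14196 against 41831. Requiring a −log10 q of 5 or more gave 8 of the 20 genes in KARPAS, beside 28.1% of all genes at that threshold.

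KDM6A itself had no region within 10 kb in either list. Of the 19 genes of KDM6A, COMPASS and Polycomb 10 were bound in KARPAS and 1 in ARP1, beside 36.9% and 12.6% of all genes. With full lists, and likewise without dense bins, 4 were bound in ARP1, beside 16.1% and 15.7% of all genes, so the list was not below the genes in general under those settings. The ARP1 gene in the equal-length list was EED, a Polycomb subunit, with rank 800 at 6512 bp in ARP1 and 15056 at 373 bp in KARPAS. ASH2L (2876), KMT2B (3706), BMI1 (9178), KMT2A (9217) and RBBP5 (14588) were bound in KARPAS only, though ASH2L, KMT2A and BMI1 had a region in the deposited ARP1 list, at ranks of 69345 or beyond. Of 20 genes of the unfolded protein response and secretion 8 and 2 were bound. HERPUD1 (692), SYVN1 (2046), EDEM1 (2098), DDIT3 (8004), ATF4 (8513) and EIF2AK3 (12310) were bound in KARPAS only, while all 20 genes had H3K27ac in ARP1 within 10 kb, beside 66.4% of all genes.

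Lists of other cell types and functions served for comparison. Of 20 housekeeping genes 12 were bound in KARPAS and 3 in ARP1, led by LDHA (rank 1164) in KARPAS. T and NK cell markers were bound at 7 and 2 of 14, led by LCK at rank 1679 in KARPAS, and the knock-out list held 5 of the 14. Myeloid and erythroid markers were bound at 6 and 3 of 14, and epithelial and stromal markers at 7 and 3 of 14, led by VIM and PECAM1. For HOX genes the counts were 15 and 3 of 39, from 8 distinct KARPAS regions, and for 40 developmental regulators 6 and 2. In KARPAS the developmental genes were below the 36.9% of all genes and the HOX genes near it, as were the genes of the unfolded protein response. With a window of 2.5 kb in place of 10 kb, where KARPAS bound 3440 genes alone and 492 with ARP1 (19.7% of all genes), the KARPAS counts were 16 for B cell genes, 9 for plasma cell genes, 11 for interferon-stimulated, 6 for myeloma, 5 for unfolded protein response, 4 for KDM6A complex, 3 for HOX and 1 for developmental genes. KARPAS has no background list, so its counts had ARP1 background removed and not its own.

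**Figure D5:**
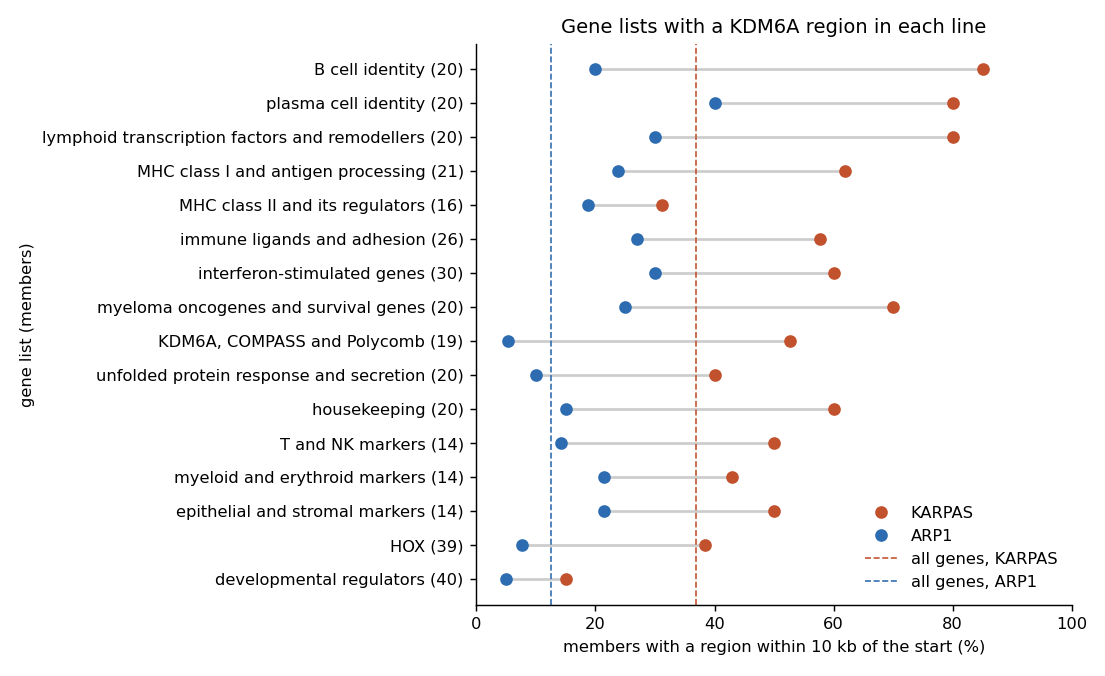
Share of the members of each gene list (%, number of members in brackets) with a region within 10 kb in KARPAS and ARP1, with dashed lines at the shares of all protein-coding genes, 36.9% and 12.6%. The B cell list has the widest gap between the lines (17 and 4 of 20 genes), and developmental regulators lie lowest in both (6 and 2 of 40).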

How the data were processed

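Lists of enriched regions from 9 libraries of the ARP1 and KARPAS lines were used, 1 library per group, grouped by title, genotype and antibody. The submitters' processing notes name GRCh38, MACS2 2.1.2, Bowtie2, Trimmomatic, FastQC and MultiQC. The file headers give MACS 2.1.1.20160309 for the KDM6A, HA and H3K4me1 lists and 2.2.7.1 for the others, each library called alone at a q-value cutoff of 0.05, without a control or a local background. Enrichment is thus relative to the library's own mean, so repeats or extra DNA copies can appear as regions. The KDM6A and HA calls used single-end tags extended to 200 bp after removal of duplicates.

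Each deposited row holds a pileup signal, a fold enrichment (ratio) and −log10 p and q values, the authors' own, used here only to rank and describe regions within a list.

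Rows with equal coordinates were merged, and chromosomes 1 to 22 and X kept. KARPAS and ARP1 regions on the ARP1 knock-out list (at least 1 bp) were removed, and the longer list was cut by −log10 q, then fold, then position. Genes were 19974 RefSeq protein-coding genes (GRCh38.p14). Starts came from the promoter table for 15812 of them (79.2%), and either gene end was used for the rest. All 353 list entries were matched by symbol. With 1 library per group no test was run. Named genes were the 10 highest ranked per class without a region in the other line's deposited list (for both lines, the best worse rank), 5 per line with the most regions, the B and plasma cell genes, and up to 6 by best rank of each other list. Some genes that the rule names are counted but not reported by name here. The members and lists were chosen with earlier results of these data known. The alternatives are described in the closing section. The tools were scipy 1.17.1, pandas 2.3.3, numpy 2.4.6 and matplotlib 3.10.9 under Python 3.11.15, and 6 of 6 steps of the region functions matched direct enumeration on simulated data.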

Additional observations from a re-analysis of the deposited data

How the results depend on the processing

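No paired analysis was possible because each group had 1 library. In all 13 or 14 settings with a value, KARPAS-only regions had the higher proximal share (6.59 to 12.9% against 0.80 to 2.95% in ARP1-only), and KARPAS had more genes of its own and more B cell and plasma cell genes. H3K27ac was more frequent in ARP1-only than in KARPAS-only regions in 9 of 11 settings, so those shares are not in a fixed order. Counts of B cell genes were 16 to 18 of 20 in KARPAS and 1 to 7 in ARP1. The shares of all genes were 19.7 to 53.4% in KARPAS and 4.57 to 28.7% in ARP1 over these settings. In every setting KARPAS had a region at more genes in general, so the order of the B cell and plasma cell counts alone says little about those lists. Ranking by fold gave the same values as ranking by −log10 q. Both rest on the same pileup without a control, so it is no separate check. Of 118 values of the 10 main results under the alternatives, 37 moved. They are grouped by setting, and beyond each setting's own construction the cause was not tested.

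With full lists the shared share of KARPAS regions was 17.8%, and H3K27ac was on 20.0% of KARPAS-only and 17.5% of ARP1-only regions. At −log10 q of 5 or more these were 12.5%, 23.5% and 28.0%, with 950 genes in both lines. With 50% overlap 14.3% were shared. Without removing the knock-out list 28.1% were shared, the proximal shares were 1.46% (ARP1-only) and 3.47% (shared), and H3K27ac was on 22.5% of ARP1-only regions. With untagged HA regions also removed, 12.5% were shared, proximal shares were 2.07% (ARP1-only) and 8.06% (shared), and H3K27ac shares 18.7% (KARPAS-only) and 21.8% (ARP1-only). Without dense bins, with the lists cut again to 32821 regions, 14.1% were shared, proximal shares were 11.4%, 2.95% and 9.34% (KARPAS-only, ARP1-only, shared), and H3K27ac was on 24.3% of ARP1-only regions. Against the other line's full deposited list, 19.9% of KARPAS regions were shared, and KARPAS-only regions were 11.1% proximal and 19.5% on H3K27ac. Within 1 kb the proximal shares were 6.59%, 0.80% and 3.36%, and within 2.5 kb there were 3440 KARPAS-only, 420 ARP1-only and 492 common genes. Counting whole genes with 10 kb either side gave 1580 ARP1-only and 4154 common genes. Chosen after seeing the data, reversing the order of tied regions gave 20.6% for H3K27ac in ARP1-only regions, and using either end of every gene gave proximal shares of 12.9%, 2.54% and 7.46%.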
